A study of Mus musculus with 4 samples.

Results

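Hox genes encode homeodomain transcription factors, and the mouse genes lie in clusters a, b, c and d on separate chromosomes. All mouse probe sets whose symbol was Hoxa, Hoxb, Hoxc or Hoxd followed by a number were taken. They made up 41 of the 32202 probe sets with a gene symbol and covered 39 of the 30861 genes so named: 11 of the Hoxa cluster, 10 of Hoxb, 9 of Hoxc and 9 of Hoxd. The set was complete, since the RefSeq gene table (GRCm38.p6) also lists 39 Hox symbols. Hoxa9 and Hoxd11 had 2 probe sets each, and the one with the higher mean was used.

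Balb/c mouse colon RNA was measured with whole-transcript arrays of the GeneChip Mouse Gene 2.0 ST type. On such an array the probes of a gene are summarised to a single log2 intensity. Control mice (arrays 1 and 2) drank plain water, and maltodextrin mice (arrays 3 and 4) drank water with 5% maltodextrin, a starch-derived food additive, both for 45 days. No genotype, transgene or other agent is given for either group. Whether the arrays of a group stand for different animals is not stated, so p-values cover only the sample-to-sample spread, and that spread may be technical. With 2 arrays a group an exact permutation test of one gene cannot go below a p of 0.33, two-sided.

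Along the body axis Hox genes are used in the order in which they lie in a cluster. Genes of low paralog number act towards the head, and those of high number act towards the tail. In the embryonic gut the same order sets up regional identity, and the genes of paralog group 13 mark the hindgut. Adult gut keeps part of this pattern, with Hoxb13 and Hoxd13 known from the distal colon and rectum of the mouse. Hox proteins bind DNA together with cofactors of the Pbx and Meis families. The caudal-related factors Cdx1 and Cdx2 act upstream of Hox genes.

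In both groups single arrays stood apart in some sets of genes. On maltodextrin 3 Hoxb13 and Hoxd13 were near background, B cell markers were low and some regional gut genes were high, with the values given below. Control 2 carried pancreatic acinar transcripts, and control 1 had the highest intensities of probe sets for olfactory, vomeronasal and taste receptors (median 3.99, against 3.40 on control 2 and 3.32 on each maltodextrin array). Array medians over all probe sets were 5.20 to 5.35. In bulk tissue, fewer cells of a type and less RNA per cell cannot be told apart.

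Promoter sequences are shown for 4 Hox genes on which maltodextrin 3 differed in opposite directions: Hoxd13 with its paralog Hoxa13, and Hoxb8 and Hoxd4. Each run is the 250 bases before the transcript start in RefSeq (GRCm38.p6), read 5′ to 3′ on the gene's strand. Capitals mark TTTATG or TTTATT, letters that caudal-related and posterior Hox proteins are known to bind, on either strand. Only these letters were searched, so a window without capitals may hold other sites. TTTATA, which differs in the last letter, was not marked and stands in the Hoxd13, Hoxb8 and Hoxd4 windows. The windows are chr2:74667975-74668224 (plus strand) for Hoxd13, chr6:52260881-52261130 (minus strand) for Hoxa13, chr11:96281655-96281904 (plus strand) for Hoxb8 and chr2:74721728-74721977 (plus strand) for Hoxd4.
Hoxd13: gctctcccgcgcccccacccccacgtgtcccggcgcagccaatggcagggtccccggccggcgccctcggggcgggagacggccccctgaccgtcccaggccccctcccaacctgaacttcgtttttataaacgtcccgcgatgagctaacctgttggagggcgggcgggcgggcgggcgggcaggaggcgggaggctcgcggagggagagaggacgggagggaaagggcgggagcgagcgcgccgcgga
Hoxa13: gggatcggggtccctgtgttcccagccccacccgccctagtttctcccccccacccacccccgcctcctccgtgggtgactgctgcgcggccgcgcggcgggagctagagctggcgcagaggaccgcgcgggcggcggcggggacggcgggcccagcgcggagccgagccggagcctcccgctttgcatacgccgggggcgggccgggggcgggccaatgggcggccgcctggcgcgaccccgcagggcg
Hoxb8: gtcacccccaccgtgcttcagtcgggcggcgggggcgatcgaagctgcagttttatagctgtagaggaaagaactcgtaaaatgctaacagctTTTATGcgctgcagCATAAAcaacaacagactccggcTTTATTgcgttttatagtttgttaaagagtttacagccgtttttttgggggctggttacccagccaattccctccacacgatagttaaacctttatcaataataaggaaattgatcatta
Hoxd4: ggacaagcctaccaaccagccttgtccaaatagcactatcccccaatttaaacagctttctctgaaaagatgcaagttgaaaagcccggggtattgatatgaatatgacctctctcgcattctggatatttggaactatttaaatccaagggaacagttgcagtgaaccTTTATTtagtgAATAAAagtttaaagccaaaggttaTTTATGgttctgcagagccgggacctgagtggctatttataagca

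The Hoxd13 window held no capitals and was 74.4% G and C, and the Hoxa13 window held none at 80.0%. Hoxb8 had 3 matches at 44.4% and Hoxd4 had 3 at 40.4%. The windows of Hoxa11, Hoxb4, Hoxd8 and Hoxd9, which were also higher on maltodextrin 3 than on maltodextrin 4, held neither motif. Of the 39 genes, 22 had an entry in the table, with 24 windows in all. TTTATG or TTTATT stood in 7 of the 24 windows (29.2%) and in 25.5% of all 32851 windows of the table. The genes were Hoxa2, Hoxa7, Hoxa10, Hoxb8, Hoxd3, Hoxd4 and Hoxd11. TTTATG alone was found in 20.8% of the Hox windows against 10.8% of all, and TTTATT in 20.8% against 18.1%. Both motifs share the letters TTTAT, and TTTATT on the other strand reads AATAAA, the letters of a polyadenylation signal. TGATTNAT, the letters of a joint Pbx and Hox site, stood in 8.33% of the Hox windows (Hoxa2 and Hoxd11) and 2.82% of all. The Hox windows had a median of 58.6% G and C against 52.4%, and a median ratio of observed to expected CpG of 0.72 against 0.37. These matches describe letters in a window, not binding.

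The clusters also carry microRNA genes, whose mature forms are known to target Hox transcripts. Those of the miR-10 and miR-196 families are shown from RefSeq (GRCm38.p6), 5′ to 3′, with the seed (bases 2 to 8) in capitals. The seed is shared within each family.
mmu-miR-10a-5p: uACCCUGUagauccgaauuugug
mmu-miR-10b-5p: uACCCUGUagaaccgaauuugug
mmu-miR-196a-5p: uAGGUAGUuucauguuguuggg
mmu-miR-196b-5p: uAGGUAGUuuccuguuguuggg

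As a guide to background, the 95th percentile of the mean log2 intensity of 1508 receptor probe sets (Olfr, Vmn and Tas names) was 5.88. By their mean over the 4 arrays, 15 Hox genes lay above this guide and 24 below it, and 18 of those 24 were below it on every array. Above it were 9 of 11 Hoxa genes, 3 of 10 Hoxb genes (Hoxb5, Hoxb9 and Hoxb13), 3 of 9 Hoxd genes (Hoxd10, Hoxd11 and Hoxd13) and no Hoxc gene. In paralog group 13, Hoxa13, Hoxb13 and Hoxd13 were above the guide and Hoxc13 was below it. The transcribed regions of 10 Hox genes overlap that of another Hox gene in the reference (Hoxa3 with Hoxa4, Hoxa5 and Hoxa6, Hoxb3 with Hoxb4, Hoxd3 with Hoxd4, and Hoxd10 with Hoxd11), and signal of such pairs may be shared. Levels of different probe sets are not set against each other here. From here on values are log2 intensities in the order control 1, control 2, maltodextrin 3, maltodextrin 4.

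**Figure D1:**
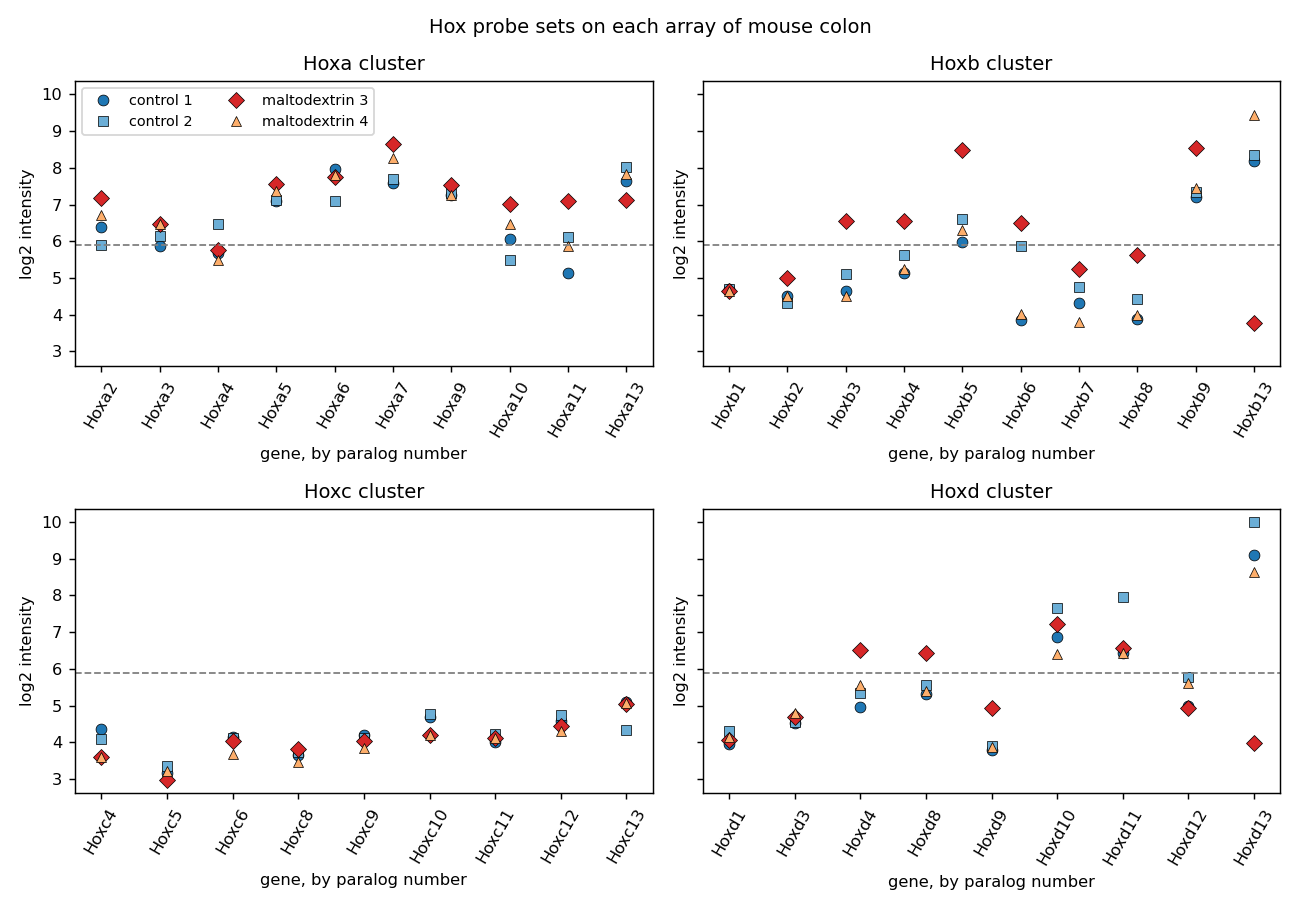
Log2 intensity (y axis) of the Hox genes named in the text on each of the 4 arrays, ordered by paralog number (x axis) in a panel per cluster. Each point is 1 array, and the dashed line is the receptor guide at 5.88. Maltodextrin 3 (diamonds) is the lowest point for Hoxb13 at 3.78 and Hoxd13 at 3.97, and the highest point for Hoxb2 to Hoxb9.

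Hoxd13, the most posterior gene of the Hoxd cluster (chromosome 2, 74668225 to 74671603), read 9.11, 10.01, 3.97 and 8.65. Maltodextrin 3 was far below the other arrays, and both maltodextrin arrays were below both controls. The gap between maltodextrin 3 and the next lowest array was 4.68, the 2nd largest such gap below the others on maltodextrin 3 among all 32202 probe sets.

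Hoxb13, the posterior gene at the end of the Hoxb cluster (chromosome 11, 96194316 to 96196610), read 8.18, 8.36, 3.78 and 9.43. Maltodextrin 3 was the lowest array and maltodextrin 4 the highest, so the groups overlapped. The gap below the others was 4.40 on maltodextrin 3, ranked 3 of 32202, and maltodextrin 4 stood 1.08 above the next array. On maltodextrin 3 both genes were below 5.26, which is where the 95th percentile of receptor intensities lay on that array, so these gaps are measured down to background.

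Hoxa13, known in the mouse for hindgut, limb and urogenital development (chromosome 6, 52258853 to 52260880), read 7.63, 8.02, 7.14 and 7.84. It was lowest on maltodextrin 3 too, with a gap of 0.50, and the groups overlapped. Hoxc13, known from hair follicles and nails, read 5.09, 4.32, 5.04 and 5.08 and was lowest on control 2. Of the posterior Hoxd genes, Hoxd12 read 5.00, 5.76, 4.93 and 5.62, with maltodextrin 3 and control 1 close together at the low end.

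Hoxb2 to Hoxb9 were highest on maltodextrin 3, whereas Hoxb1 was not. Hoxb5, which in the mouse takes part in enteric nervous system and lung development, read 5.98, 6.62, 8.49 and 6.32. Maltodextrin 3 was 1.87 above the next array, and the other arrays lay within 0.63 of each other. Hoxb9 read 7.20, 7.33, 8.53 and 7.46, a gap of 1.07. Its maltodextrin arrays were both above both controls.

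Several Hoxb genes were dim on most arrays and brighter on maltodextrin 3. Hoxb3 read 4.65, 5.10, 6.56 and 4.51, and Hoxb4, a regulator of blood stem cells, read 5.14, 5.62, 6.55 and 5.24. Hoxb8, known in the mouse for grooming behaviour and microglia, read 3.87, 4.41, 5.64 and 3.99, below the guide on every array. In these genes maltodextrin 3 was the highest array and maltodextrin 4 lay among or below the controls. Hoxb6 read 3.86, 5.87, 6.51 and 4.03, so that control 2 and maltodextrin 3 were high and the others low. Hoxb7 read 4.32, 4.75, 5.24 and 3.80, below the guide on every array. The anterior genes Hoxb1 (4.63 to 4.69) and Hoxb2 (4.32 to 4.99) varied little.

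In the Hoxd cluster the brighter genes on maltodextrin 3 were Hoxd4, Hoxd8 and Hoxd9. Hoxd4 read 4.97, 5.34, 6.50 and 5.57, Hoxd8 read 5.31, 5.57, 6.43 and 5.38, and Hoxd9 read 3.78, 3.89, 4.94 and 3.88. Maltodextrin 3 was the highest array for each, although Hoxd9 stayed below the guide throughout. The anterior genes Hoxd1 (3.96 to 4.30) and Hoxd3 (4.51 to 4.80) were below the guide on every array. Hoxd10, which takes part in hindlimb innervation, read 6.87, 7.66, 7.23 and 6.40, highest on control 2. Hoxd11, a limb and kidney gene, read 6.44, 7.96, 6.57 and 6.42 and stood 1.39 above the others on control 2. The 2nd probe set of Hoxd11 read 6.49, 7.06, 6.64 and 6.29, again highest on control 2. Control 2 was also the array with pancreatic acinar transcripts, and their part in the Hoxd11 value was not tested.

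The Hoxa cluster differed less between the maltodextrin arrays. Hoxa7 read 7.59, 7.71, 8.65 and 8.28, Hoxa2, a hindbrain and branchial arch gene, read 6.39, 5.89, 7.17 and 6.73, and Hoxa10, known from the uterus and the axial skeleton, read 6.05, 5.49, 7.03 and 6.47. In each of these genes both maltodextrin arrays were above both controls. Hoxa5, which in the mouse takes part in lung and gut development, read 7.10, 7.12, 7.55 and 7.38, and Hoxa3 read 5.86, 6.13, 6.46 and 6.47. These groups did not overlap either. Hoxa11 read 5.13, 6.11, 7.09 and 5.88, highest on maltodextrin 3. Hoxa9 (7.27, 7.32, 7.54 and 7.27), Hoxa6 (7.98, 7.08, 7.74 and 7.81) and Hoxa4 (5.67, 6.47, 5.75 and 5.49) had overlapping groups.

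Across genes, arrays were compared within each group. Maltodextrin 3 and maltodextrin 4 differed by at least 1 on the log2 scale in 12 of 39 Hox genes (30.8%), beside 2.04% of all probe sets. Of these, 10 were higher on maltodextrin 3 (Hoxa11, Hoxb3 to Hoxb9, Hoxd8 and Hoxd9; 1.02% of all probe sets were) and 2 were lower (Hoxb13 by -5.65 and Hoxd13 by -4.68, beside 1.02%). The Hoxb cluster had a median difference of 1.37, with 9 of 10 genes higher on maltodextrin 3, whereas the medians were 0.26 for Hoxa, 0.01 for Hoxc and 0.15 for Hoxd. In paralog group 13, 4 of 4 genes were lower on maltodextrin 3, as were 16030 of all 32202 probe sets. Of these 4, Hoxc13 was below the guide on every array and differed by only -0.04. The differences in paralog group 13 ranged from -5.65 to -0.04. Spearman's rho between paralog number and this difference was 0.24 over the 11 Hoxa genes, -0.02 over the 10 Hoxb genes, -0.02 over the 9 Hoxc genes and -0.35 over the 9 Hoxd genes. For the Hoxd genes it was 0.72 for control 2 minus control 1 and -0.67 for maltodextrin minus control. These values describe neighbouring genes on the same arrays.

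Both controls differed by at least 1 in 2 Hox genes (Hoxb6 by 2.02 and Hoxd11 by 1.52, higher on control 2 as 3.22% of all probe sets were), beside 8.84% in either direction. The Hox share was 5.13%. All 9 Hoxd genes were higher on control 2, by 0.05 to 1.52. So were 9 of 10 Hoxb genes, 31 of all 39 Hox genes and 13819 of all 32202 probe sets. Against the other 3 arrays, maltodextrin 3 was the highest array for 18 Hox genes (23.9% of all probe sets had it highest) and stood at least 1 above in 5, Hoxb3, Hoxb5, Hoxb8, Hoxb9 and Hoxd9, beside 0.674% of all probe sets. It was the lowest for 8 (25.7% of all probe sets had it lowest), with a gap of at least 1 in Hoxb13 and Hoxd13, beside 0.342%.

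**Figure D2:**
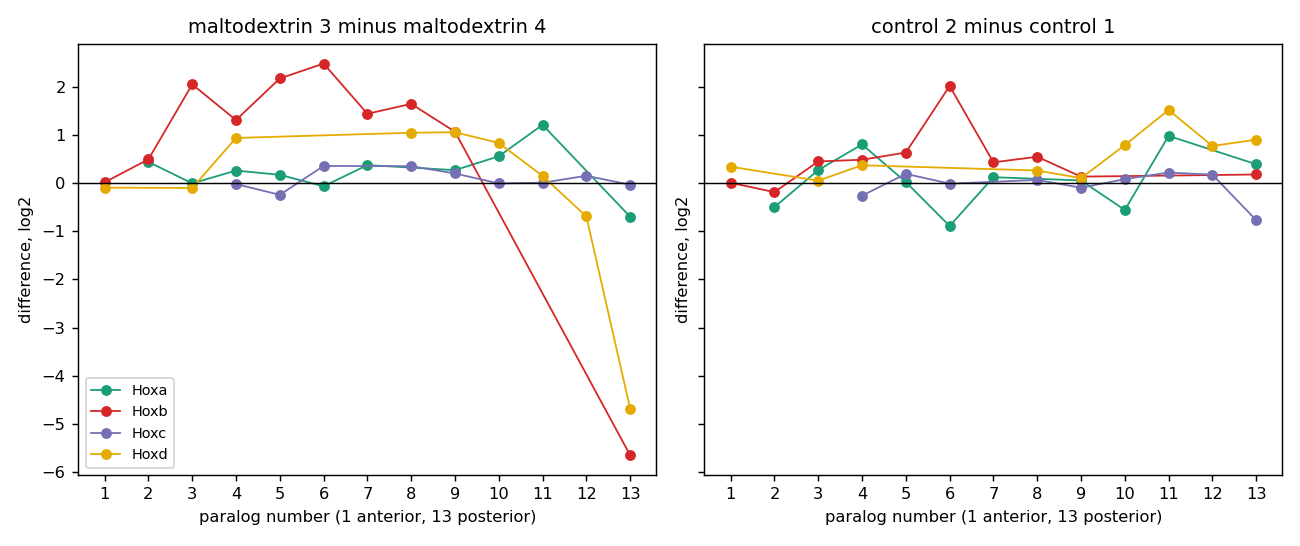
Difference on the log2 scale (y axis) between the arrays of a group, for the Hox genes named in the text by paralog number (x axis), with a line per cluster joining its genes. Left, maltodextrin 3 minus maltodextrin 4, where Hoxb3 to Hoxb9 lie between 1.07 and 2.48 and Hoxb13 and Hoxd13 at -5.65 and -4.68. Right, control 2 minus control 1, where the values lie between -0.89 and 2.02.

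The arrays were also correlated across genes, which are not independent replicates. Over the 39 Hox genes Pearson's r of maltodextrin 3 with the other arrays was 0.54 to 0.57, whereas those other arrays had r of 0.92 to 0.97 with each other. Without Hoxb13 and Hoxd13 the values over 37 genes were 0.83 to 0.87 and 0.90 to 0.97. Over all 32202 named probe sets maltodextrin 3 was closest to maltodextrin 4, with r of 0.98, the highest of the 6 pairs. Over the 39 Hox genes maltodextrin 3 was also closest to maltodextrin 4, with r of 0.57. The highest r over the Hox genes was instead that of control 1 with maltodextrin 4, at 0.97.

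The study's comparison, maltodextrin against control, asked how the additive alters colonic expression. By limma, with Benjamini-Hochberg adjustment over all 32202 probe sets, no Hox gene reached an adjusted p under 0.05, and no probe set of the table did. The smallest adjusted p of a Hox gene was 0.271, for Hoxa7. At an unadjusted p under 0.05 there were 5 of 39 Hox genes (12.8%), beside 14.6% of all probe sets. Hoxa2, Hoxa7 and Hoxa10 were higher (9.96% of all probe sets were), and Hoxc4 and Hoxc10 were lower (4.63%). The submitters' nominal criterion, which adds a minimum fold of 1.5, was met on the limma values by 4 Hox genes, beside 12.1% of all probe sets. Hoxa2, Hoxa7 and Hoxa10 were higher (8.51% of all) and Hoxc4 was lower (3.56%). The groups did not overlap in 15 Hox genes, 8 higher and 7 lower with maltodextrin, beside 50.4% of all probe sets (25.6% and 24.7%). With both directions together the Hox shares of 12.8%, 10.3% and 38.5% were below those of the table.

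Hoxa7 was 7.65 ± 0.09 (SD, n = 2) in control and 8.47 ± 0.26 (SD, n = 2) with maltodextrin. Its difference was 0.82 (SE 0.21, limma adjusted p = 0.271). Hoxa10 differed by 0.98 (SE 0.31, limma adjusted p = 0.305) and Hoxa2 by 0.80 (SE 0.28, limma adjusted p = 0.318). The difference of these 3 genes was as low as 0.63, 0.70 and 0.55 with 1 array left out, and stayed above 0. The 95th percentile of receptor intensities was 6.91 on control 1 and 5.53 on control 2. Hoxa10 was below it on both controls and Hoxa2 on control 1, so their differences are measured from near background.

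Hoxc4 read 4.36, 4.10, 3.58 and 3.60, a difference of -0.64 (SE 0.19, limma adjusted p = 0.292). Hoxc10 read 4.69, 4.77, 4.18 and 4.19, a difference of -0.54 (SE 0.17, limma adjusted p = 0.302). Both genes were below the guide on every array. The Hoxc cluster, whose genes are best known from limb, skin and spinal cord, was lower in 8 of 9 genes with a median of -0.21, and 69.4% of all probe sets below the guide were lower too. The control arrays also had the higher receptor medians (3.99 and 3.40, against 3.32 and 3.32), and the part of this in the Hoxc values was not tested. Hoxc5, Hoxc6, Hoxc8, Hoxc9, Hoxc11 and Hoxc12 lay between 2.96 and 4.75 on all arrays.

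Hoxd13 and Hoxb13 had the largest differences in size among the Hox genes. Hoxd13 was 9.56 ± 0.64 (SD, n = 2) in control and 6.31 ± 3.31 (SD, n = 2) with maltodextrin, a difference of -3.26 (SE 1.58, limma adjusted p = 0.411). It was -0.91 without maltodextrin 3 and -5.60 without maltodextrin 4. Hoxb13 was 8.27 ± 0.13 (SD, n = 2) and 6.61 ± 4.0 (SD, n = 2), a difference of -1.66 (SE 1.87, limma adjusted p = 0.691), which became 1.16 without maltodextrin 3. Neither difference was larger than the spread between the maltodextrin arrays.

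By section of the clusters, the anterior genes (paralog numbers 1 to 4) had a median difference of 0.27, the central ones (5 to 8) of 0.35 and the posterior ones (9 to 13) of -0.16. The posterior median minus that of all other Hox genes was -0.50 with all arrays and 0.05 without maltodextrin 3. The median over all 39 was 0.11, beside -0.04 for all probe sets, and it was -0.05 without control 1. Among genes above the guide it was 0.35 for Hox and 0.21 for all. By cluster the median was 0.35 for Hoxa, 0.46 for Hoxb, -0.21 for Hoxc and -0.02 for Hoxd.

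Single arrays decided the number of genes at an unadjusted p under 0.05. Without maltodextrin 3 there was 1 (Hoxb13, higher), beside 4.0% of all probe sets. Without maltodextrin 4 there were 12 (6.05% of all), 10 of them higher: Hoxa7, Hoxa10, Hoxb3, Hoxb4, Hoxb5, Hoxb8, Hoxb9, Hoxd4, Hoxd8 and Hoxd9, with Hoxb13 and Hoxd13 lower. The difference of Hoxd11, which was highest on control 2, was -1.46 without control 1 and 0.054 without control 2. In the authors' deposited table of folds and p-values, Hoxc4 alone met the submitters' own criterion of a fold of at least 1.5 and p under 0.05, with a fold of -1.56 and p = 0.0400.

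**Figure D3:**
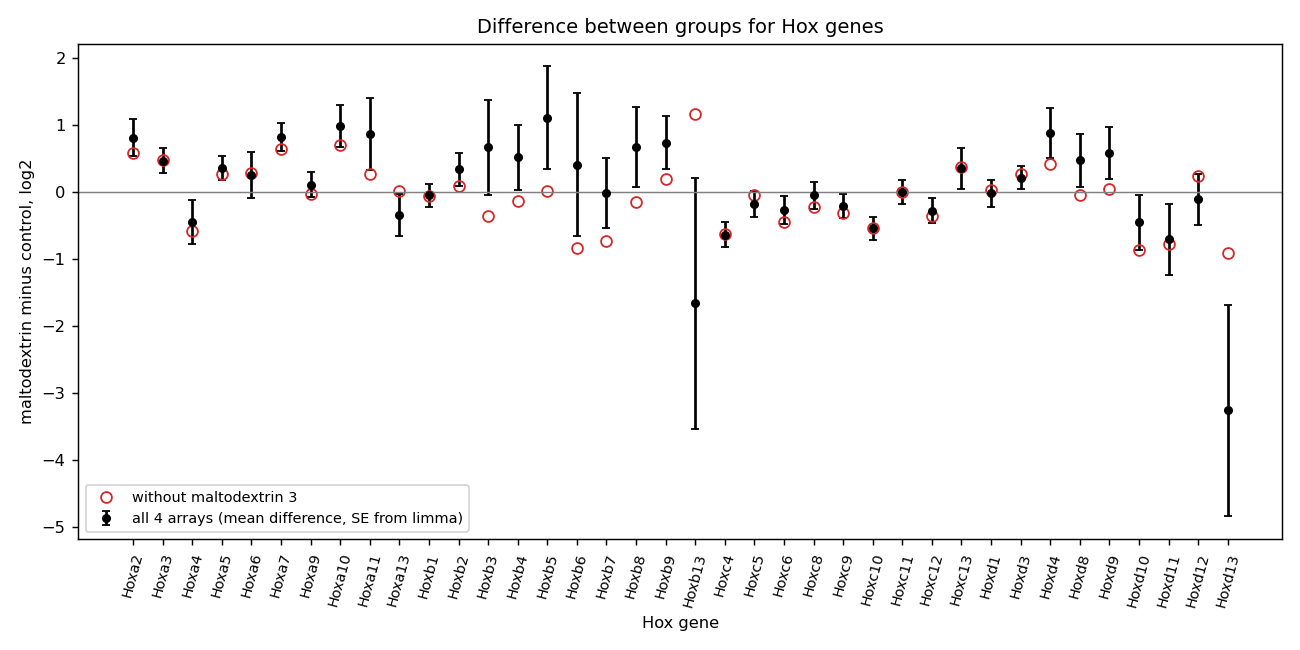
Maltodextrin minus control on the log2 scale (y axis) for the Hox genes named in the text, in cluster order (x axis). Filled points are the difference of means over 4 arrays with the standard error from limma, and open circles are the difference without maltodextrin 3. Hoxb13 moves from -1.66 to 1.16 and Hoxd13 from -3.26 to -0.91 when that array is left out.

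Among the Hox cofactors, 9 were measured and 6 lay above the guide. None reached an unadjusted p under 0.05, beside 14.6% of all probe sets. Pbx2 was higher with maltodextrin by 0.46 (SE 0.18) and Pbx3 by 0.47 (SE 0.19), limma adjusted p = 0.357 for both, and their groups did not overlap, as in 50.4% of all probe sets. Meis1 (7.05, 7.70, 7.56 and 7.03) and Meis2 (8.31, 8.25, 8.87 and 8.17) had overlapping groups. On maltodextrin 3 against maltodextrin 4 the cofactors differed by -0.01 to 0.70, so none reached 1.

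Cdx2, the caudal-related factor that specifies intestinal epithelium, read 7.83, 8.39, 9.48 and 7.73. Maltodextrin 3 was 1.09 above the next array, and maltodextrin 4 was below both controls. Cdx1, its relative in the intestinal epithelium, read 7.97, 8.89, 8.60 and 8.69 and did not share this. Cdx4 (3.79 to 4.59) and the ParaHox genes Gsx1, Gsx2 and Pdx1 (4.24 to 5.30) were below the guide on every array.

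Of 14 measured noncoding RNA genes of the clusters, 4 lay above the guide: Hottip, Hoxa11os, Hoxaas3 and Mir196a-1. Hottip, transcribed at the posterior end of the Hoxa cluster, read 6.87, 6.51, 5.93 and 7.62, and Hoxa11os, the antisense RNA of Hoxa11, read 8.28, 8.30, 7.71 and 8.49. Both were lowest on maltodextrin 3 and highest on maltodextrin 4, as was Hoxb13. The sense gene Hoxa11 was highest on maltodextrin 3. Hoxaas3, an antisense RNA of the Hoxa cluster, read 5.51, 6.57, 7.59 and 7.27, a difference of 1.39 (SE 0.40, limma adjusted p = 0.288). It was 0.86 without control 1 and 1.91 without control 2. On control 1 Hoxaas3 was below the 95th percentile of receptor intensities on that array (6.91), so that value is near background. Strand specificity of these probe sets is not given here.

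The probe set of Mir196a-1, the miR-196a gene that lies between Hoxb9 and Hoxb13, read 8.14, 8.93, 7.86 and 7.87. Its difference was -0.67 (SE 0.31, limma adjusted p = 0.398), with both maltodextrin arrays below both controls. It was -0.28 without control 2 and -1.06 without control 1. Its family is known in the mouse to cleave the Hoxb8 transcript. Mir10a (2.83 to 3.43), Mir10b (2.76 to 3.32), Mir196a-2 (3.39 to 4.45) and Mir615 (4.14 to 4.82) were below the guide on every array. Mature and precursor forms cannot be told apart by these values.

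Retinoic acid is known to activate Hox genes from the anterior end. Of 18 genes of its synthesis, breakdown and reception, 2 were higher at an unadjusted p under 0.05, Dhrs3 and Rarg (Rarg chosen after its values were seen), beside 9.96% of all probe sets, and none was lower. Aldh1a1, which makes retinoic acid, read 9.04, 9.03, 11.63 and 9.60, so that maltodextrin 3 stood 2.03 above the next array. Its difference was 1.58 (SE 0.69, limma adjusted p = 0.380), and 0.57 without maltodextrin 3. Dhrs3, a retinal reductase, was higher by 0.77 (SE 0.21, limma adjusted p = 0.279). The breakdown enzymes Cyp26a1, Cyp26b1 and Cyp26c1 lay between 3.29 and 5.51 and were named after their values were seen.

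Polycomb and trithorax proteins are known to keep Hox clusters silent or active. Of 21 measured genes of these groups, 20 lay above the guide. With maltodextrin 18 of the 21 differed upwards and 3 downwards, beside 67.4% and 32.6% of all probe sets above the guide. Their median was 0.29, beside 0.21 for all probe sets above the guide. At an unadjusted p under 0.05 there were 4 higher (Cbx7, Ash2l and Rnf2 among them), beside 20.3% of all probe sets above the guide, and 1 lower (Kmt2a), beside 3.45%, with Rnf2 and Kmt2a chosen after their values were seen. Cbx7, a Polycomb chromobox protein, read 6.69, 7.0, 7.83 and 7.50, a difference of 0.82 (SE 0.23, limma adjusted p = 0.281). Between maltodextrin 3 and maltodextrin 4 this list differed by -0.37 to 0.34.

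Other genes known to mark positions along the gut were read on the same arrays. Isx, an intestinal homeobox gene of vitamin A metabolism, read 6.01, 5.38, 11.08 and 6.46. Osr2, an odd-skipped related factor named after its values were seen, read 4.06, 4.43, 9.71 and 4.51. Maltodextrin 3 stood 4.62 above the next array for Isx and 5.21 for Osr2. The group difference was 3.07 (SE 1.54) for Isx and 2.87 (SE 1.72) for Osr2, and 0.77 and 0.26 without maltodextrin 3. On both controls Isx and Osr2 were below the 95th percentile of receptor intensities (6.91 on control 1 and 5.53 on control 2). Their differences are therefore measured from near background. Of 8 measured genes known from the proximal gut, 2 lay above the guide, Fabp2 and Rbp2, and they went opposite ways on maltodextrin 3. Fabp2, the intestinal fatty acid binding protein, read 8.35, 7.99, 11.41 and 8.42. Its difference was 1.74 (SE 1.0, limma adjusted p = 0.466), and 0.25 without maltodextrin 3. Rbp2 read 8.60, 8.87, 8.28 and 9.50, highest on maltodextrin 4 and lowest on maltodextrin 3.

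Of 4 measured genes known from the distal colon, 3 were lowest on that array. Atp12a, the colonic proton and potassium pump, was 11.88, 12.29, 6.71 and 10.36. Maltodextrin 3 was 3.65 below the next array, and its difference of -3.55 (SE 1.22, limma adjusted p = 0.318) was -1.72 without it. Insl5, a peptide hormone of colonic L cells, read 8.17, 7.89, 6.81 and 9.23, lowest on maltodextrin 3 and highest on maltodextrin 4. Scnn1g, a subunit of the epithelial sodium channel, read 6.78, 6.21, 5.66 and 7.18 in the same order. Scnn1b, another subunit, read 6.37, 5.79, 7.71 and 8.01 and was higher with maltodextrin on both arrays, by 1.77 (SE 0.27, limma adjusted p = 0.232).

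For Foxf1 and Foxf2 maltodextrin 3 lay within 0.35 of the next array. Foxf1, a mesenchymal forkhead factor, read 9.43, 8.58, 10.16 and 9.81, a difference of 0.99 (SE 0.34, limma adjusted p = 0.322) that was 0.56 without control 2. Foxf2 was higher by 0.77 (SE 0.25, limma adjusted p = 0.308). Fabp6 and Lct, ileal and small intestinal genes named after their values were seen, were below the guide on every array, at 4.04 to 4.99 and 4.03 to 5.07.

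**Figure D4:**
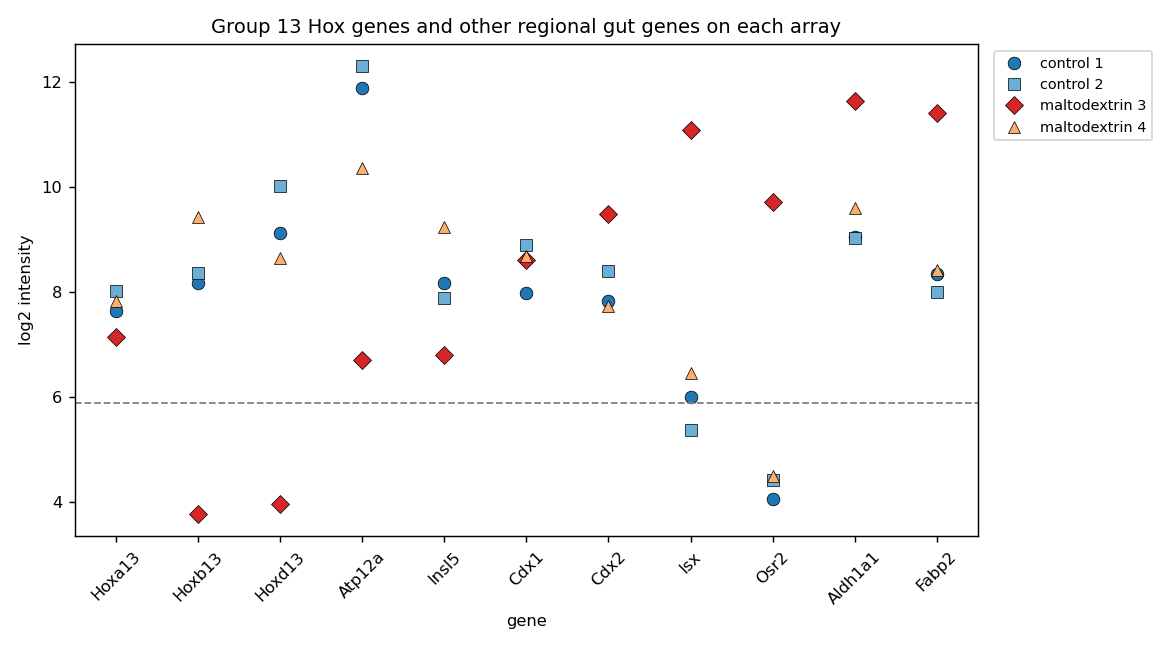
Log2 intensity (y axis) on each of the 4 arrays for Hoxa13, Hoxb13 and Hoxd13 and for other genes known to vary along the gut (x axis). Points are single arrays, and the dashed line is the receptor guide at 5.88. Maltodextrin 3 is the lowest point for Atp12a at 6.71 and the highest for Isx at 11.08 and Osr2 at 9.71.

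Marker lists of the cell types in colon tissue were set beside these values. Epithelial markers (9 of 9 above the guide) had a summed level, as log2 of summed linear intensity, of 15.10 and 14.91 in control and 15.03 and 14.86 on maltodextrin 3 and maltodextrin 4. For smooth muscle (8 of 8 above) it was 15.10 and 15.24, and 14.99 and 14.60, and 8 of 8 markers were higher on maltodextrin 3 than on maltodextrin 4, by 0.07 to 0.95. For fibroblasts (8 of 8 above) it was 12.57 and 12.82, and 12.86 and 12.86.

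Enteric neuron and glia markers (4 of 9 above the guide) summed to 9.15 and 9.21 in control, and to 9.65 and 9.12 on maltodextrin 3 and maltodextrin 4. All 9 were higher on maltodextrin 3 than on maltodextrin 4, by at most 0.65. B cell markers (6 of 6 above) summed to 12.14 and 11.42, and to 10.58 and 11.66, and 6 of 6 were lowest on maltodextrin 3. Cr2, a receptor of follicular B cells, read 9.28, 8.64, 6.21 and 8.09. The part of these lists in the Hox values was not tested.

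Pancreatic acinar markers (3 of 8 above the guide) summed to 8.93 and 13.25, and to 8.28 and 8.91, and 8 of 8 were highest on control 2. Pnlip, pancreatic lipase, read 3.63, 9.71, 3.57 and 3.37. Skeletal muscle markers (2 of 7 above) summed to 8.72 and 8.72, and to 8.99 and 8.28. None of 7 markers of squamous epithelium, as in the anal canal, was above the guide, with sums of 6.92 to 7.15.

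**Figure D5:**
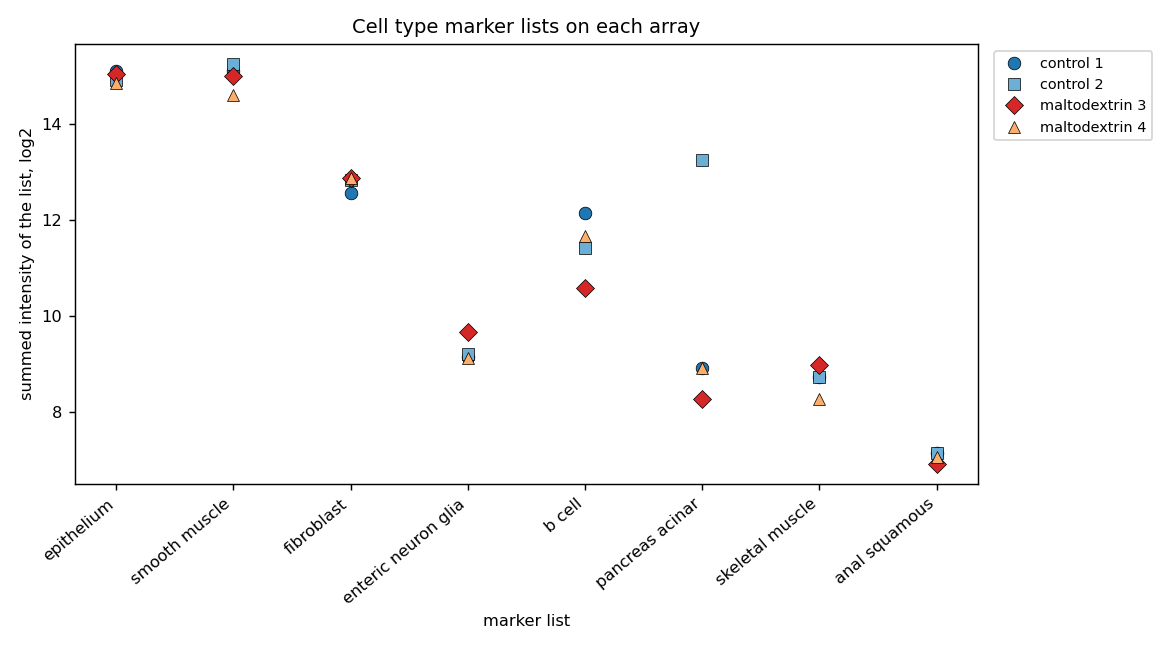
Log2 of the summed linear intensity (y axis) of each cell type marker list (x axis) on each of the 4 arrays. Points are single arrays. Epithelial sums lie between 14.86 and 15.10, the B cell sum is lowest on maltodextrin 3 at 10.58, and the pancreatic acinar sum is highest on control 2 at 13.25.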

How the data were processed

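Colon RNA of 4 mouse samples was measured on whole-transcript arrays, and labels gave each sample its group. The authors deposited log2 intensity values for 41345 probe sets. The submitters' processing notes name Partek 6.6, and no source used here states how background was corrected or arrays were normalised. A deposited table of comparisons (33793 rows) holds a ratio, a signed fold score and a p-value for each row, per the file headers, and its symbols name 32202 probe sets. Group means of the intensities gave the deposited log2 ratio to within 9.1e-05.

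All named probe sets entered a single limma 3.58.1 fit (R 4.3.3) of maltodextrin minus control, with lmFit and eBayes, two-sided tests and Benjamini-Hochberg adjustment. Its residual degrees of freedom were 2 and its prior 2.62, and the script was tested on simulated data. The number of arrays limits the precision. Hox genes and gene lists were chosen with earlier results of these data known. All Hox genes, cofactors, Cdx and ParaHox genes and cluster noncoding RNA genes could be named, and of the other lists up to 4 members above the receptor guide with the largest differences. Some of these genes enter the counts but are not reported by name here. Alternatives were a filter at a mean log2 of 5, repeated quantile normalization, median centring, the trend and robust options of eBayes, the methods' t-test (an equal-variance test), a stricter fold of 2, deposited folds and p-values, averaging of a gene's probe sets, other cuts of the posterior genes, and leaving out each array.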

Additional observations from a re-analysis of the deposited data

How the results depend on the processing

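No paired analysis was possible because the sample numbers run from 1 to 4 through both groups, so that no number is shared. No result over the 39 Hox genes had an adjusted call to lose, and with 2 arrays a group each array weighs heavily. The number of Hox genes at an unadjusted p under 0.05 (5) was 3 of 22 at a mean log2 of at least 5 (19.0% of all probe sets). It was 3 of 39 by the methods' t-test (10.8% of all probe sets). The number at the nominal criterion (4) was 1 by the methods' t-test, 0 at a fold of at least 2, 1 by the authors' deposited values, and 1 to 12 with each array left out. The number with groups that do not overlap (15) was 8 of 22 at a mean log2 of at least 5 (56.1% of all probe sets), and 22 to 32 with each array left out (68.1% to 82.5% of all probe sets), a setting chosen after seeing the data. The median difference (0.11) was 0.43 at a mean log2 of at least 5, 0.35 above the guide, and -0.054 to 0.21 with each array left out. The posterior minus non-posterior difference (-0.50) was -0.72 at a mean log2 of at least 5, -0.97 above the guide, -0.65 with posterior counted from paralog group 10, and -0.54 to 0.053 with each array left out. With quantile normalization applied again the sign turned for Hoxa9 (-0.076), Hoxb1 (0.078), Hoxb7 (0.12), Hoxd1 (0.14), Hoxc11 (0.16) and Hoxc8 (0.12). With median centring it turned for Hoxb1 (0.016), Hoxb7 (0.054), Hoxd1 (0.046), Hoxc11 (0.062) and Hoxc8 (0.015). With each array left out it turned for Hoxa13 (-0.69 to 0.0091), Hoxa6 (-0.20 to 0.69), Hoxb13 (-4.49 to 1.16), Hoxa9 (-0.026 to 0.24), Hoxd11 (-1.46 to 0.054), Hoxd8 (-0.053 to 0.99), Hoxb4 (-0.14 to 1.17), Hoxd12 (-0.49 to 0.28), Hoxb3 (-0.36 to 1.69), Hoxb6 (-0.84 to 1.64), Hoxc13 (-0.035 to 0.74), Hoxb7 (-0.73 to 0.71), Hoxb8 (-0.15 to 1.49), Hoxd1 (-0.19 to 0.15), Hoxc11 (-0.11 to 0.10) and Hoxc8 (-0.23 to 0.12). The cause of these changes was not tested, and in fits without an array the lone sample is assumed to vary like the other group.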
